A study of Homo sapiens with 8 samples.

Results

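Vector and EBF2-OE cells were each sequenced as a library numbered 2 and a library numbered 3: Vector 2 and Vector 3 from cells with the empty vector, and EBF2-OE 2 and EBF2-OE 3 from cells made to overexpress EBF2, a transcription factor of the early B-cell factor family. The genes described here are those that differed between the number 3 and the number 2 libraries, in the same direction in the Vector pair and in the EBF2-OE pair. In the labels all 4 of these libraries are SW1990, an established pancreatic cancer cell line, and share the RNA protocol. Per the study's methods, plasmids were brought in by transfection. The other 4 of the 8 libraries are Vehicle 1 and 2 and GSK-LSD1 1 and 2. These are from cells also labelled SW1990, given vehicle or the LSD1 inhibitor GSK-LSD1 (2000 µM in the labels). They serve here only to show where the levels of the numbered pairs lie. The labels do not say what the numbers stand for (a culture round, a transfection, a day), so number and round cannot be told apart, and p-values measure only the spread between these libraries.

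Of 38637 genes in the table, 15560 had enough counts to be tested. A gene was called when its fold change in the joint fit of the 4 libraries was above 1.5, its adjusted p was under 0.05 and both pairs went the same way. By this rule 172 genes were higher in number 3 (1.11% of those tested) and 105 were lower (0.675%), 277 in all (1.78%). The 4 libraries of the fit held 20453362 to 24022927 counts on genes, and all 8 libraries 20453362 to 27054876.

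Serum, growth factors, stretch or fresh medium switch on immediate early genes within minutes, since their promoters are served by factors already present in the cell, among them serum response factor at the CArG box. TEAD factors act with the cofactor YAP at the TEAD site, and RBPJ acts with Notch at its own site. Low oxygen or crowded culture acts through HIF, which binds the core ACGTG. Zinc and other metals act on metallothionein genes through metal response elements. Lists of genes for immediate early, YAP, hypoxia and metallothionein programs are used below, and nothing in the labels says that any of them was set in motion on purpose.

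The 5 promoter stretches that follow belong to called genes, EGR1, CCN2 and HES1 among the higher and ANKRD37 and MT1X among the lower ones. They were picked because their window holds the motif of a factor named above, and ANKRD37 is not the hypoxia gene with the largest change. They were copied from RefSeq windows of GRCh38.p14 around each gene's start, are written 5′ to 3′ on the gene's own strand, stop before the transcript begins, and have the matching motif in capitals. EGR1 lies at chr5:138465349-138465439 on the plus strand (CArG box), CCN2 at chr6:131951442-131951562 on the minus strand (TEAD site, CATTCC or GGAATG), HES1 at chr3:194136028-194136118 on the plus strand (RBPJ site, GTGGGAA or TTCCCAC), ANKRD37 at chr4:185396661-185396721 on the plus strand (hypoxia response core, ACGTG or CACGT) and MT1X at chr16:56682300-56682440 on the plus strand (metal response core, TGCACNC or TGCGCNC and their reverse complements).
EGR1: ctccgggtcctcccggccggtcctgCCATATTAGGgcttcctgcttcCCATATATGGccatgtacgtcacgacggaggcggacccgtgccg
CCN2: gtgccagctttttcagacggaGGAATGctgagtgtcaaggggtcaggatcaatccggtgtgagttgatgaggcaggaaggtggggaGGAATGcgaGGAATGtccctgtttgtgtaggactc
HES1: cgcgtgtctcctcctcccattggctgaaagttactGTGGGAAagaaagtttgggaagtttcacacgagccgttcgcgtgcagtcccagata
ANKRD37: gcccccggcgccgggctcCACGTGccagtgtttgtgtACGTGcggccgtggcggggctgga
MT1X: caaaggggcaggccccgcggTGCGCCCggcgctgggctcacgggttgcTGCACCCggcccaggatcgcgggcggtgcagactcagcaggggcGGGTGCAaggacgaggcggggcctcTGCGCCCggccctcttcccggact

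The EGR1 stretch holds 2 CArG boxes, which begin 105 and 83 bases before the start. CCN2 has 3 TEAD sites, HES1 has 1 RBPJ site 85 bases before the start, ANKRD37 has 3 hypoxia response cores of which 2 overlap on opposite strands in the run CACGTG, and MT1X has 4 metal response cores. A window (250 bases before to 50 after the start, both strands searched) was found for 11649 tested genes, 123 of those called higher and 71 of those called lower. A CArG box stood in 1.63% of the windows of higher genes (2 windows, that of EGR1 among them) and 1.00% of all. A TEAD site stood in 10.6% (13 windows) and 11.3%, and an RBPJ site in 7.32% (9 windows) and 5.76%. The hypoxia response core stood in 32.4% of the windows of lower genes and 26.1% of all, and the metal response core in 40.8% and 38.2%. The same search found the AP-1 site (TGACTCA or TGAGTCA) in 3.34% of all windows. It stood in 4.07% of those of higher genes (5 windows) and 8.45% of those of lower genes (6 windows). A match is a description of the letters only.

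EBF2, the gene that was overexpressed, was read first as a check of the labels. Levels here and below are CPM, read counts brought to 1 scale by library size and TMM factors over the 8 libraries. EBF2 stood at 1.32 and 1.19 CPM across the Vector pair (number 2, then number 3), at 287 and 4019.6 CPM across the EBF2-OE pair, and between 0.873 and 1.75 CPM in the other 4 libraries. Both EBF2-OE libraries were far above all others, and the 2 differed from each other by 14.1-fold. EBF2 passed the adjusted p (0.000411) but was not called, since the rule asks for the same direction in both pairs. Its log2 fold was -0.15 in the Vector pair, with 28 counts in each library, and 3.82 in the EBF2-OE pair. EBF2 was the 1 gene past the adjusted p and the fold limit that the rule on direction left out. KLLN, the p53-responsive gene of the study's title, was not called (log2 fold change 0.45 ± 0.21 (SE), adjusted p = 0.401), with 5.23 and 6.49 CPM in Vector 2 and 3 and 7.75 and 11.51 CPM in EBF2-OE 2 and 3.

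Marker genes were read as a description of the cells, and whether the cells are the line named in the labels was not tested. The keratins KRT8, KRT18 and KRT7 were high in all 8 libraries, KRT8 at 2186 to 3094 deposited TPM (a level divided by gene length), while KRT19, EPCAM and CDH1, which mark pancreatic duct epithelium, were at most 1.57, 1.42 and 1.12 TPM in any library. Of the 10 fibroblast, 10 endothelial, 12 immune and 8 adipocyte markers, 8, 3, 5 and 3 had enough counts to be tested. None of those was called, against 1.78% of all genes tested. The summed TPM of each whole list in the 4 libraries was 54.3 to 72.0, 34.6 to 58.1, 27 to 38.4 and 23.1 to 27.7. The 10 epithelial markers summed to 5199 and 4816 TPM in Vector 2 and 3 and 5693 and 6518 TPM in EBF2-OE 2 and 3, and none of the 8 tested was called. Most of that sum came from KRT8, KRT18 and KRT7. In a culture, fewer cells in a state and less RNA per cell cannot be told apart.

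**Figure D1:**
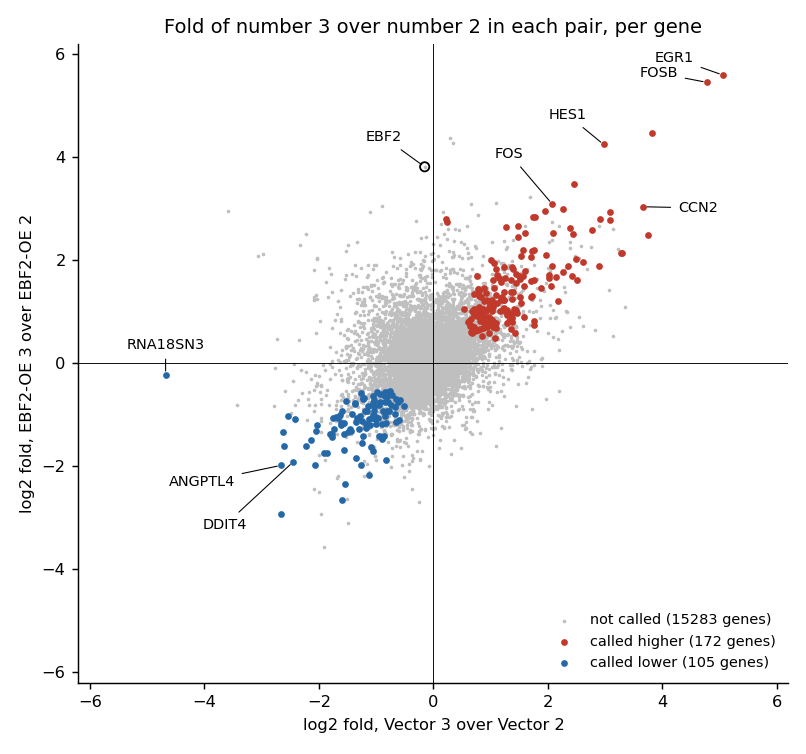
Log2 fold of number 3 over number 2 in the EBF2-OE pair (vertical axis) against that in the Vector pair (horizontal axis), 1 point for each of the 15560 tested genes; red points are the 172 called higher and blue points the 105 called lower. EGR1 and FOSB lie at the upper right with more than 4 log2 units in both pairs, EBF2 lies on the vertical axis at 3.82, and RNA18SN3 is called lower with nearly all of its fold in the Vector pair.

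The folds of the 2 pairs were loosely related over all genes (Pearson r = 0.35, Spearman rho = 0.261 across 15560 genes, which are not independent replicates; the pairs share no library). Over 1.5-fold, 2450 genes (15.7%) moved in the Vector pair and 2780 (17.9%) in the EBF2-OE pair. Of these, 535 were higher and 401 lower in number 3 of both pairs, 289 were lower in the Vector pair and higher in the EBF2-OE pair, and 26 were the reverse. Among the called genes, 167 of 172 and 97 of 105 were past 1.5-fold in both pairs, and 96 and 49 were past 2-fold in both. The called higher genes comprised 145 protein-coding genes, 19 lncRNAs, 6 mitochondrial tRNAs and 2 pseudogenes, and the lower genes 87 protein-coding genes, 16 lncRNAs, 1 rRNA and 1 tRNA.

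Immediate early genes were the list with the highest number of calls. Of 30 tested members, 15 were higher, 2 were lower and 13 were not called (56.7% called against 1.78% of all genes tested), with a median log2 fold change of 0.88 (0.65 in the Vector pair and 1.46 in the EBF2-OE pair) against 0.01 over all genes tested. EGR1 (chr5:138465479-138469303), a zinc finger factor of the serum response, went from 7.96 CPM in number 2 to 269 CPM in number 3 of the Vector pair and from 3.65 to 180.1 CPM in the EBF2-OE pair. The number 3 libraries were 33.2-fold higher in the Vector pair and 48.5-fold in the EBF2-OE pair, and of the number 2 libraries EBF2-OE 2 lay within the 2.70 to 3.92 CPM of the other 4 while Vector 2 lay above it (log2 fold change 5.32 ± 0.19 (SE), adjusted p = 2.47e-06). FOSB, which pairs with JUN proteins in AP-1, went from 7.96 to 222 CPM in the Vector pair and from 6.41 to 284 CPM in the EBF2-OE pair. FOS went from 46.4 to 197 and from 39.1 to 333 CPM. For each of the 3 genes both number 3 libraries lay above all 6 others. FOS, whose 2 pairs differed in size, missed the threshold when the spread was estimated robustly (adjusted p = 0.0671).

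The nuclear receptors of the NR4A family, which are induced without ligand, were each called higher. NR4A1 had 134 and 119 CPM in Vector 2 and EBF2-OE 2 and 522 and 912 CPM in Vector 3 and EBF2-OE 3. NR4A2 had 5.04 and 3.503 CPM against 28.2 and 39.7 CPM, and NR4A3 had 17.7 and 12.4 CPM against 36.0 and 50.0 CPM. ATF3, a stress-induced repressor, was 60.5 and 32.3 CPM in number 2 and 169.6 and 204 CPM in number 3, and EGR2 was close to the counting limit in number 2 (5 counts in each library against 40 and 41). KLF4 and KLF6, Krüppel-like factors, were higher by 1.33 and 0.97 on the log2 scale. With the robust spread estimate the adjusted p was 0.0525 for NR4A1, 0.111 for NR4A3 and 0.222 for ATF3. The third factor of that class, KLF2, had 8 and 10 counts in number 2 and 35 and 92 in number 3, and its number 3 libraries did not lie above all others. With the EBF2-OE 2 or EBF2-OE 3 library left out its adjusted p was 0.115.

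Other members of the same list did not move together. MYC, the growth-promoting factor, was lower (420 and 379 CPM in number 2, 189 and 198 CPM in number 3; log2 fold change -1.05 ± 0.14 (SE), adjusted p = 0.00616), as was IER3, an inhibitor of cell death (144 and 126 against 85.0 and 65.8 CPM). JUN and JUNB were not called: JUN went from 62.4 to 25.6 CPM in the Vector pair and from 28.5 to 40.7 CPM in the EBF2-OE pair, and JUNB went from 238 to 44.5 CPM in the Vector pair and from 114 to 113 CPM in the EBF2-OE pair. A further list holds genes that ERK induces, some of them brakes on ERK (DUSP, SPRY and SPRED genes) and others not, such as CCND1, ETV4 and LIF. Of its 17 tested members DUSP5, a nuclear ERK phosphatase, was the 1 called (5.88%, against 1.78% of all genes tested). DUSP5 was higher, at 32.8 to 78.1 and 26.4 to 61.9 CPM. In both pairs 10 of the 17 were lower, against 4350 of the 15560 genes tested, with a list median of -0.35.

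The CCN genes, secreted matrix proteins and the best known targets of YAP and TEAD, stand on both the immediate early and the YAP list. CCN2 (chr6:131948176-131951372) went from 26.6 to 341 CPM in the Vector pair and from 24.7 to 202 CPM in the EBF2-OE pair, with 39.3 to 48.2 CPM in the other 4 libraries. Here the number 3 libraries lay above and the number 2 libraries below all others (log2 fold change 3.36 ± 0.18 (SE), adjusted p = 2.95e-05). CCN1 was at 70.8 and 68.2 CPM in number 2 and 608 and 469 CPM in number 3. The rest of the YAP list was mixed. AMOTL2 and LATS2, which feed back on YAP, were higher by 1.24 and 1.16 on the log2 scale, and NT5E and GADD45B were lower by 1.14 and 0.77. With CCN1 and CCN2, 27.3% of the 22 members were called, against 1.78% of all genes tested, and 16 were not (list median 0.12). ANKRD1, another standard YAP target, was 0.25 in the Vector pair and 2.60 in the EBF2-OE pair on the log2 scale and was not called (adjusted p = 0.51). THBS1, a matrix protein with a TEAD site in its window, had 28.6 and 31.7 CPM in number 2 and 118 and 99.4 CPM in number 3.

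HES1 was among the genes with the largest change. HES1 (chr3:194136148-194138732), the repressor that Notch and other signals induce, went from 15.97 to 127 CPM in the Vector pair and from 9.22 to 176 CPM in the EBF2-OE pair, against 3.45 to 4.40 CPM in the other 4 libraries (log2 fold change 3.60 ± 0.27 (SE), adjusted p = 0.000347). The number 2 libraries were themselves above the other 4 here, and the call was lost with the robust spread estimate (adjusted p = 0.13). HEY2, JAG1 and NRARP, also of the Notch pathway, were picked after their values were seen as called genes, and no list of Notch genes was counted. HEY2, a related repressor, had 0.989 and 1.13 CPM in number 2 and 4.15 and 5.13 CPM in number 3. JAG1, a Notch ligand, had 9.18 and 10.4 CPM against 34.1 and 28.7 CPM, and NRARP, a feedback inhibitor of Notch, 21.8 and 22.1 against 45.9 and 61.0 CPM. For NRARP the other 4 libraries, at 38.4 to 52.9 CPM, were near number 3 rather than number 2.

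Of 19 tested NF-kB targets, 4 were higher and 1 lower (26.3% called, against 1.78% of all genes tested), with a list median of 0.02 (-0.16 in the Vector pair and 0.30 in the EBF2-OE pair). NFKBIZ, an atypical IkB protein, was at 7.39 and 5.87 CPM in number 2 and 39.4 and 36.4 CPM in number 3, with 8.60 to 10.5 CPM in the other libraries. TNFAIP3, the ubiquitin-editing brake on NF-kB, was at 39.3 and 35.8 against 134 and 163 CPM. The cytokine IL6 was at 2.35 and 2.32 against 13.1 and 7.67 CPM, and the chemokine CXCL2 rested on 6 to 48 counts. BCL3, a nuclear cofactor of NF-kB, was lower (49.4 and 33.6 against 20.6 and 22.5 CPM). PTGS2, the inducible cyclooxygenase, was higher at 9.37 and 10.7 against 58.5 and 41.7 CPM, as was PTGER4, a receptor for the prostaglandin it leads to (7.91 and 8.68 against 22.1 and 17.1 CPM). The secreted cytokine IL24 was at 0.330 and 0.395 CPM in number 2 (7 and 8 counts) and 3.05 and 1.70 CPM in number 3. None of 29 interferon-stimulated genes was called (0%, against 1.78% of all genes tested). At that share so short a list can hold no call.

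Further genes higher in number 3 act in metabolism, signalling and the clock. PDK4, the kinase that shuts off pyruvate dehydrogenase, had 33.8 and 46.5 CPM in number 2 and 173 and 170.4 CPM in number 3, above the 56.3 to 70.6 CPM of the other libraries. CYP1B1, the aryl hydrocarbon receptor target, had 96.1 and 73.1 against 293 and 251 CPM. PER2, the clock repressor, had 17.8 and 15.7 against 41.7 and 32.8 CPM. It was the 1 called gene of 17 tested clock genes (5.88%, against 1.78% of all genes tested). IGFBP1, AREG and SOX9, an insulin-like growth factor binding protein, an EGF receptor ligand and a duct progenitor factor, were higher by 1.81, 1.25 and 1.51 on the log2 scale. GPNMB, a lysosomal and membrane glycoprotein, had 15.2 and 13.4 CPM in number 2 and 29.1 and 34.5 CPM in number 3, and 63.6 to 68.6 CPM in the GSK-LSD1 libraries.

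MASP2, a complement protease, SLC25A34, a mitochondrial carrier, and SNAI2, a mesenchymal repressor, were also higher. MASP2 had 0.141 and 0.444 CPM in number 2 (only 3 and 9 counts) and 2.20 and 2.28 CPM in number 3. SLC25A34 had 0.565 and 0.395 CPM (12 and 8 counts) against 3.65 and 1.87 CPM, and SNAI2 12.01 and 7.15 against 21.7 and 13.96 CPM. Among the 28 tested epithelial-mesenchymal and matrix genes, SNAI2 and THBS1 were the 2 called higher and the adhesion genes ITGA2, ITGB4 and PLAUR the 3 called lower. The called share was 17.9%, against 1.78% of all genes tested, with a list median of -0.15. ITGA2, the collagen-binding integrin chain, fell from 122 to 69.6 CPM in the Vector pair and from 134 to 36.5 CPM in the EBF2-OE pair, with an adjusted p of 0.0151 (0.234 with the robust spread estimate).

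Genes with the largest fall in number 3 included DDIT4, ANGPTL4 and ARRDC3. DDIT4 (chr10:72273924-72276036), an inhibitor of mTORC1 that energy stress induces, went from 1462 to 269 CPM in the Vector pair and from 1316 to 346 CPM in the EBF2-OE pair. It was 5.48-fold lower in the Vector pair and 3.78-fold lower in the EBF2-OE pair (log2 fold change -2.19 ± 0.18 (SE), adjusted p = 0.000433), and the other libraries lay between, at 860.2 to 955 CPM. ANGPTL4, a lipase inhibitor induced by HIF and fatty acids, was at 75.1 and 44.5 CPM in number 2 and 11.9 and 11.2 CPM in number 3, with 18.9 to 24.9 CPM elsewhere. ARRDC3, an arrestin that limits glucose uptake and receptor signalling, was at 99.1 and 86.9 against 21.2 and 28.5 CPM. TXNIP, its glucose-sensing relative, was at 99.5 and 50.6 against 39.1 and 22.9 CPM, while the other 4 libraries had 129 to 256 CPM.

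Most hypoxia and glycolysis genes had lower values in number 3 of both pairs, and most were not called. Of 32 tested, 6 were called lower, 0 were called higher and 26 were not called (18.8% called, against 1.78% of all genes tested). In both pairs 24 of the 32 had a fold under 1, 0 had a fold above 1 in both, and 8 were split, against 4350 lower in both, 4518 higher in both and 6692 split of all genes tested. The list median was -0.30 (-0.34 and -0.39 in the pairs). EGLN3, the HIF prolyl hydroxylase that is itself a HIF target, was at 15.7 and 12.5 CPM in number 2 and 4.32 and 3.66 CPM in number 3. SLC2A3, a glucose transporter, was at 15.4 and 14.9 against 5.596 and 6.11 CPM, and NDRG1 at 1103 and 1063 against 513 and 503 CPM. ANKRD37, ADM and ENO2 were lower by 1.37, 0.97 and 0.69 on the log2 scale. The members below the threshold had smaller folds: VEGFA -0.61 (adjusted p = 0.075), CA9 -0.45 (0.237), PDK1 -0.44 (0.214) and BNIP3 -0.43 (0.177). The glycolytic enzymes GAPDH, ENO1 and PKM had fitted log2 fold changes of -0.03, -0.07 and -0.03.

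HILPDA was among the 12 lower genes with the largest change, and the other genes of this paragraph were picked after their values were seen, from the called lower genes. HILPDA and PLIN2, lipid droplet proteins, were at 48.8 and 52.2 against 14.1 and 19.9 CPM and at 48.3 and 46.4 against 27.6 and 24.3 CPM. MIR210HG, the host transcript of a hypoxia-induced miRNA, was at 41.5 and 39.5 against 12.4 and 18.7 CPM. The glycogen-targeting subunits PPP1R3B and PPP1R3C were lower by 1.32 and 0.78 on the log2 scale. NEAT1, the nuclear paraspeckle RNA, was at 1188 and 1027 against 462 and 603 CPM.

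**Figure D2:**
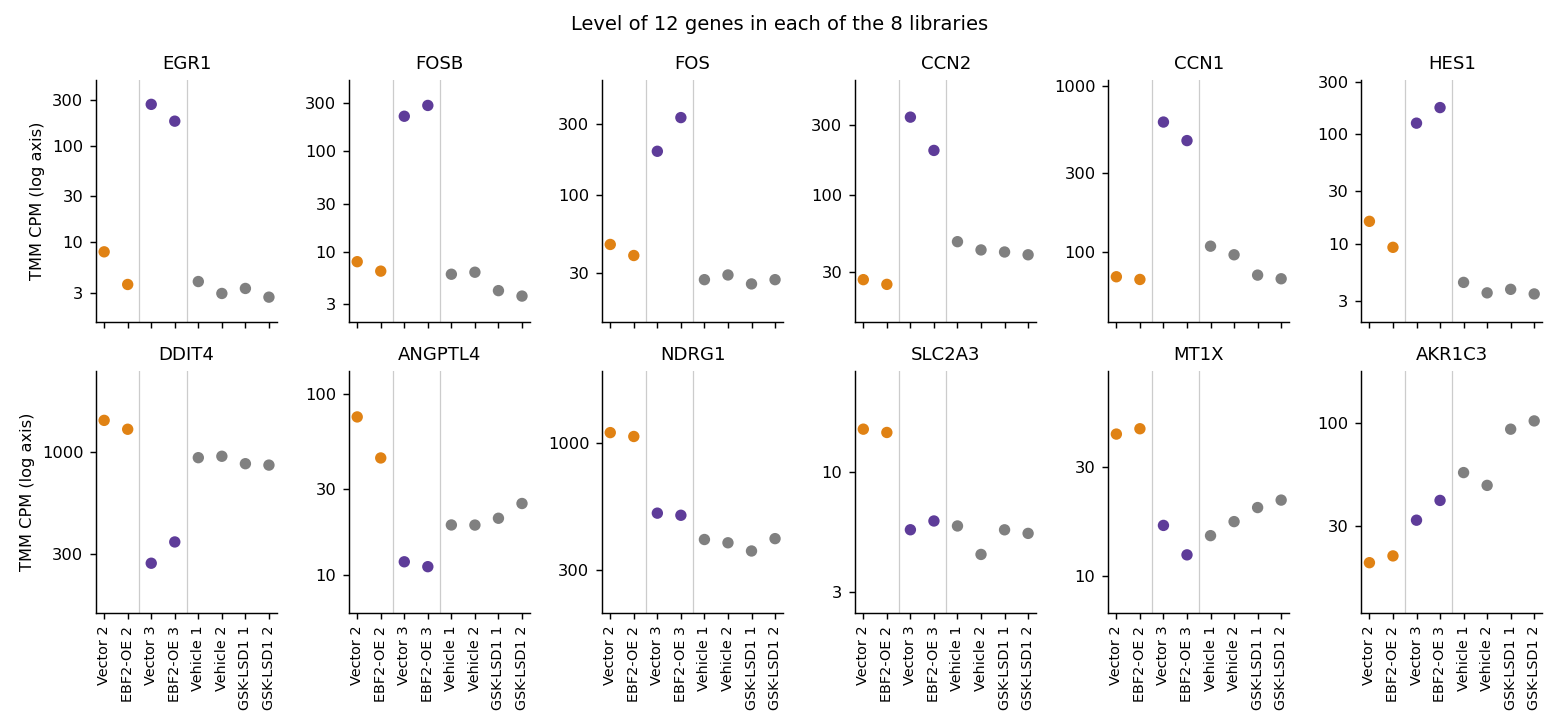
Level of 12 genes in each of the 8 libraries (TMM CPM, log axis with its own range per gene): orange points are the number 2 libraries, purple the number 3 libraries and grey the Vehicle and GSK-LSD1 libraries. For the 6 genes of the upper row the purple points lie above all others. For DDIT4, ANGPTL4, NDRG1, SLC2A3 and MT1X the orange points do, and for AKR1C3 the orange points lie lowest. For DDIT4 and ANGPTL4 the purple points also lie lowest.

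Of 11 metallothionein genes, which buffer zinc and copper, 3 were tested and 2 were called lower in number 3 (66.7%, against 1.78% of all genes tested). MT1X was at 42.1 and 44.4 CPM in number 2 and 16.7 and 12.4 CPM in number 3, while the other 4 libraries had 15.02 to 21.5 CPM. MT1E was at 64.5 and 62.2 against 36.0 and 36.6 CPM. These genes are close copies of each other, so reads may have been split between them.

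The cytokine inhibitors CISH and SOCS3 were lower by 1.92 and 1.61 on the log2 scale. SOCS3 was at 27.6 and 21.2 CPM in number 2 and 6.78 and 9.19 CPM in number 3, below all other libraries. ZC3H12D, ZNF792, MYEOV, NAGS and TMEM158 complete the lower genes with the largest change. MYEOV, a gene amplified in some cancers, was at 17.3 and 17.3 against 5.93 and 3.30 CPM, and NAGS, the enzyme that makes the activator of the urea cycle, at 3.63 and 3.21 against 0.763 and 1.07 CPM.

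NRF2 targets, genes of the oxidative stress and detoxification response, were mostly on the higher side with few calls: 3 of 21 were called, all higher (14.3%, against 1.78% of all genes tested), and 19 of the 21 were above 1 in both pairs, against 4518 of 15560 (list median 0.27). The 3 were the aldo-keto reductases AKR1C1, AKR1C2 and AKR1C3, related copies whose counts are uncertain, above all those of the near-identical AKR1C1 and AKR1C2. Without EBF2-OE 2 or EBF2-OE 3 the adjusted p of AKR1C1 was 0.134 or 0.133, and by DESeq2 that of AKR1C2 was 0.306. AKR1C3 was at 19.5 and 21.1 CPM in number 2 and 32.1 and 40.5 CPM in number 3, and 48.3 to 103 CPM in the other libraries. HMOX1 and NQO1, the textbook NRF2 targets, were 0.50 and 0.20 on the log2 scale and not called (adjusted p = 0.115 and 0.627). NFE2L2, which encodes NRF2, was called higher by 0.63.

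Of the 24 rRNA and tRNA genes of the mitochondrial genome 17 were tested and 6, all tRNAs, were called higher (35.3%, against 1.78% of all genes tested). The list median was 0.72, with 1.00 in the Vector pair and 0.46 in the EBF2-OE pair. TRNL1, a leucine tRNA, went from 39.2 to 102 CPM in the Vector pair and from 51.6 to 89.98 CPM in the EBF2-OE pair. TRNH, TRNI, TRNR and TRNG lost the call without the group term (adjusted p = 0.06, 0.0591, 0.0691 and 0.0646), and TRNH, TRNR and TRNG also with the robust spread estimate (0.0903, 0.125 and 0.0546). The 24 genes summed to 30240 TPM (Vector 2) and 37870 TPM (EBF2-OE 2) against 49170 and 47910 in number 3, while the other 4 libraries had 48090 to 50690, so that by this sum the number 2 libraries were the low ones. Of the 6 called tRNAs, however, 5 had both number 3 libraries above all 6 others and 4 had both number 2 libraries below. TRNL1 met both, with 63.8 to 77.2 CPM in the other 4 libraries. Since mitochondrial tRNAs border genes on both strands and the counting by strand is not stated, reads of neighbours cannot be told apart. Mitochondrial mRNAs were not analysed here. The 539 snoRNA genes summed to 2990 and 2715 TPM in number 2 and 3926 and 3917 in number 3, with 0 of 78 tested called and a median of 0.63. Mature tRNAs and snoRNAs carry no poly(A) tail, and the part of such RNA in the other results was not tested.

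Lists for the cell cycle, translation and respiration gave no call (0%, against 1.78% of all genes tested). At that share lists of these sizes can hold no call, so 0 calls do not show that a program was unchanged. The S phase genes (30 tested) had a median log2 fold change of 0.11, the G2 and M phase genes (30 tested) -0.10, the cytosolic ribosomal protein genes (82 tested) -0.06 and the nuclear-encoded genes of oxidative phosphorylation (81 tested) 0.04. The p53 targets (24), unfolded protein response genes (20), heat shock genes (16), fatty acid synthesis genes (12), core histone genes (19) and snoRNA host genes (25) were likewise without a call at an adjusted p of 0.05 by edgeR. Of the 27 ATF4 targets 1 was called, DDIT4 (3.7%), and of the 31 lysosomal genes 1, GPNMB (3.23%), against 1.78% of all genes tested. Some of these lists differed in direction between the pairs: G2 and M phase genes had a median of 0.11 in the Vector pair and -0.29 in the EBF2-OE pair, and p53 targets -0.25 and 0.23.

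**Figure D3:**
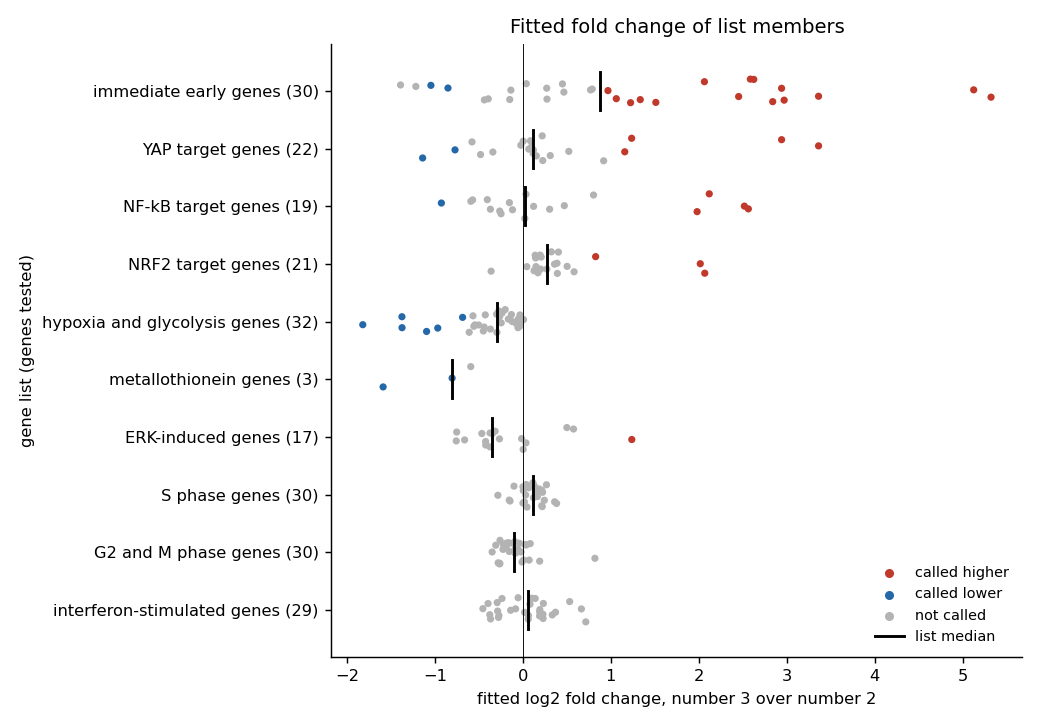
Fitted log2 fold change of number 3 over number 2 (horizontal axis) for each tested member of 10 gene lists (rows, number tested in brackets); red and blue points are called genes, grey points are not called, and black bars are list medians. Immediate early genes spread from -1.39 to 5.32 with a median of 0.88, and no hypoxia or glycolysis gene is called to the right of 0.

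The 4 libraries of the drug experiment served to show whether number 2 or number 3 lay apart. The rule already sets number 3 apart from number 2 within each pair, and the drug experiment may differ in other ways, so these counts are a description. Of the 172 higher genes, 133 had both number 3 libraries above all 6 others (77.3%, against 11.4% of all genes tested), and 74 had both number 2 libraries below all 6 others (43%, against 8.34%). Of the 105 lower genes, 75 had both number 3 libraries below all others (71.4%, against 10.4%), and 60 had both number 2 libraries above all others (57.1%, against 8.55%). Among the 15 immediate early genes called higher, number 3 stood above all others for 14 and number 2 below all others for 5. Among the 6 hypoxia and glycolysis genes called lower, number 2 stood above all others for 6 and number 3 below all others for 1. EGLN3 was the 1 gene of the 6 that met both. For the 3 AKR1C genes and for BMP2 and CLU, number 2 lay lowest and the number 3 libraries did not lie above all others.

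**Figure D4:**
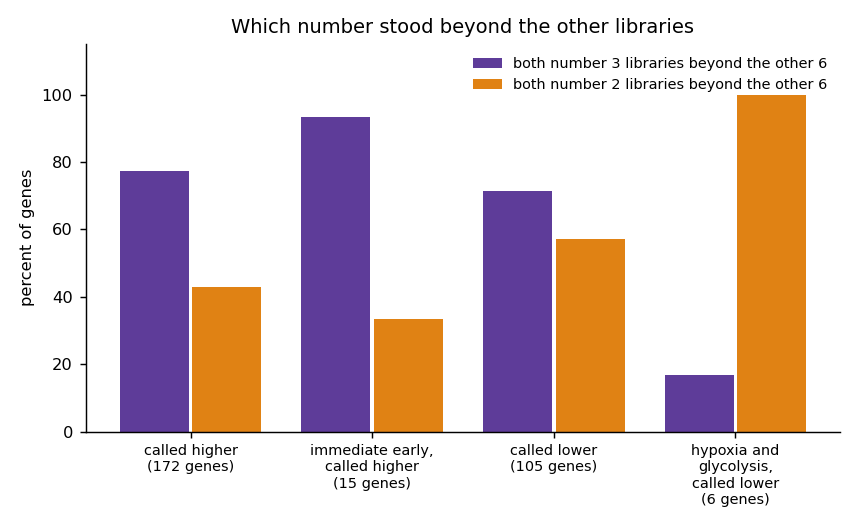
Percent of genes (vertical axis, from 0) whose number 3 libraries (purple) or number 2 libraries (orange) both lay beyond all 6 other libraries in the direction of the call, for 4 groups of called genes. The purple bar is the taller one for immediate early genes (93.3% and 33.3%) and the orange bar for hypoxia and glycolysis genes (16.7% and 100%).

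Number 3 and number 2 did not differ to the same extent in the 2 pairs, each of which is 1 library over 1 library. The difference between the pairs was tested in 1 fit over all 8 libraries, with the spread taken from the Vehicle and GSK-LSD1 pairs. Its adjusted p does not measure the spread between cultures of Vector or EBF2-OE cells. By this test 1329 genes differed at an adjusted p under 0.05 (8.54% of those tested). Among them were 25 of the 172 higher genes (14.5%) and 14 of the 105 lower genes (13.3%). FOS, HES1, ATF3 and NR4A1 were further apart in the EBF2-OE pair, by 1.00, 1.27, 1.17 and 0.97 on the log2 scale, and CCN2 was closer by 0.65. Within the EBF2-OE pair EBF2 itself differed 14.1-fold (287 and 4019.6 CPM), and its part in these differences was not tested. EGR1 passed no such test (adjusted p = 0.172). RNA18SN3, a copy of the 18S rRNA gene, was called lower from 1 library: it had 390 counts in Vector 2 and 15, 13 and 12 counts in the others of the 4. Without Vector 2 its log2 fold change was -0.27 (adjusted p = 0.867), and it was also not called by DESeq2 or with the robust spread estimate (adjusted p = 0.492).

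Genes that moved in opposite directions differed in base composition. Genes lower in the Vector pair and higher in the EBF2-OE pair (289) had a median transcript GC content of 61.7% (known for 83% of them and for 91.7% of all), against 48.7% for all genes tested, 47.4% for the called higher and 53.9% for the called lower genes. In 5 equal groups of genes ordered by GC content, the median log2 fold went from 0.05 in the lowest to -0.18 in the highest group for the Vector pair, and from -0.08 to 0.22 for the EBF2-OE pair. With a GC term for each library 358 genes were called higher and 301 lower, among them 172 of the 172 and 105 of the 105. The part of GC content in the difference between the pairs was not tested.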

How the data were processed

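Per the labels, poly(A) RNA was sequenced paired-end, HISAT2 placed the reads on hg38, and HTSeq gave the counts per gene that the authors deposited. The use of strand in counting is not given in the sources used here. The deposited table holds raw counts, and TPM that the authors derived from them. Counts of the 4 Vector and EBF2-OE libraries went into a quasi-likelihood test (edgeR 4.0.16, R 4.3.3; TMM normalization, filterByExpr with a minimum count of 10, terms for the group and the number). This fit has 1 residual degree of freedom, and the spread rests on what genes share (prior degrees of freedom 8.59, biological coefficient of variation 14.3%). Two-sided p-values were adjusted over all tested genes after Benjamini-Hochberg. The SE was taken from the test statistic. Folds of a pair are differences of log2 CPM with a prior count of 2. In data simulated for this comparison over 15560 genes, 71 of 100 genes changed 2-fold and 94 of 100 changed 4-fold were recovered. Of the unchanged genes 7 were called. The simulation took each gene's spread from the trend with level and let no gene differ between the pairs. Its rates may therefore not hold for these libraries.

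The members and lists were chosen with earlier results of these data known. The genes named are EBF2, EGR1, FOS, GPNMB, TXNIP and KLLN, the 12 protein-coding genes called in each direction with the largest smaller fold of both pairs and at least 1 CPM on average, and up to 6 called members per list. Genes outside this rule (HEY2, NRARP, JAG1, SOCS3, PPP1R3B, PPP1R3C, PTGER4, CYP1B1, PTGS2, PDK4, IL24, SOX9, MYC, NEAT1 and others) were chosen after their values were seen. Some genes that the rule names are not reported here. The mitochondrial list was taken from the table's chromosome column after its gene prefix matched nothing. Duplicate libraries were looked for, and same-group libraries differed beyond sampling noise (chi-square per degree of freedom 25.6 for Vector and 32.9 for EBF2-OE). Transcript GC content came from the longest GENCODE transcript of each symbol. Alternatives were DESeq2 1.42.0, limma 3.58.1, other scalings, filters and spread estimates, and leaving out each library.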

Additional observations from a re-analysis of the deposited data

Results flagged for a closer look

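For some genes named here the fold of the EBF2-OE pair differed from that of the Vector pair in a fit over 8 libraries (edgeR, adjusted over all genes tested). Each fold is 1 library over 1 library, and the spread came from the Vehicle and GSK-LSD1 pairs. The adjusted p therefore does not measure the spread between cultures of Vector or EBF2-OE cells. EBF2 differed 14.1-fold between EBF2-OE 2 and EBF2-OE 3, and its part in these differences was not tested. Values are log2 folds of the EBF2-OE pair minus the Vector pair, with the adjusted p in brackets. EBF2 itself stood at 3.96 (0.000136), with EBF2-OE 3 at 4019.6 CPM and EBF2-OE 2 at 287 CPM. Among genes higher in number 3 the difference was positive for FOS 1.00 (0.000796), FOSB 0.67 (0.027), HES1 1.27 (0.00163), NR4A1 0.97 (0.000205), NR4A2 1.01 (0.0297), NR4A3 0.99 (0.0135), ATF3 1.17 (0.000404), KLF4 0.56 (0.0127), SOX9 0.86 (0.0248) and CITED2 0.48 (0.0258), so that these went further in the EBF2-OE pair. It was negative for CCN2 -0.65 (0.0195), SGK1 -0.4 (0.0386), TRNH -1.04 (0.0232), TRNL1 -0.58 (0.015), TRNR -0.85 (0.00634) and TRNG -0.61 (0.0139), so that these went further in the Vector pair. Among the genes lower in number 3 it was positive, toward a smaller fall in the EBF2-OE pair, for DDIT4 0.52 (0.00254), ARRDC3 0.61 (0.0234), BCL3 0.68 (0.0207), SOCS3 0.82 (0.0289), NEAT1 0.59 (0.00356) and MIR210HG 0.67 (0.0348), and negative for ITGA2 at -1.07 (0.000699). JUN and JUNB, which were not called, stood at 1.8 (0.00146) and 2.40 (0.000121). RNA18SN3 stood at 4.58 (0.0392), which rests on 390 counts in Vector 2.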

How the results depend on the processing

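Counts of genes higher and lower in number 3 (172 and 105) were 130 and 67 by DESeq2 (120 and 63 shared), 250 and 163 with its size factors in edgeR, 409 and 308 in 1 fit of all 8 libraries, 358 and 301 with the GC term, and 653 and 515 at an unadjusted p under 0.05. With no filter on low counts (25455 genes) 0 and 0 were called by edgeR, with 721 and 534 at an unadjusted p under 0.05; with the older dispersion estimate beside it, an alternative added after the data were seen like the GC term, 222 and 143 were called. The remaining alternatives gave 158 to 190 and 91 to 116. Leaving out 1 library gave 401 to 928 higher and 400 to 651 lower genes, since the number then rests on 1 pair and the spread on the drug experiment.

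Of 1074 values of the 99 named genes under 11 alternatives (all but the unfiltered edgeR fit and the left-out libraries), 1031 kept their side of the threshold and 39 lost the call, 4 gained one and 0 reversed; 7 of the genes had no adjusted p in DESeq2. With those fits counted too, 144 values lost the call (89 of them in the unfiltered fit), 13 gained one and 4 reversed, those of EBF2 and JUN. Apart from the genes given in the report, calls were lost by DESeq2 for CISH, ZNF792, NAGS, TMEM158, GADD45B, AREG, SNAI2, TRNI and PPP1R3C, without the group term for TXNIP, NT5E, GADD45B, BCL3, ITGA2, SNAI2, TRNH, TRNI, TRNR, TRNG, KLF2, RNA18SN3 and NFE2L2, with the robust spread estimate for BCL3, TRNH, TRNR and TRNG, with the older one for ZNF792 and RNA18SN3, and by limma at either pseudocount for RNA18SN3. JUNB gained a call with the GC term, and VEGFA with DESeq2's size factors, in the fit of 8 libraries and with the GC term. With a library left out, EBF2 was -0.15 to 3.81 and JUN -1.28 to 0.52, each following the pair that remained. TRNR, TRNG, SGK1, NFE2L2 and GADD45B were under 1.5-fold without Vector 2 (log2 fold change 0.57, 0.47, 0.57, 0.58 and -0.57), as were TRNR, TRNG, SGK1, GADD45B and BCL3 without Vector 3 (0.58, 0.48, 0.58, -0.56 and -0.58). The median of NF-kB targets was -0.05 with at least 10 counts in each library and -0.15 to 0.29 with a library left out. Past 2-fold in both pairs 195 genes were higher and 105 lower, against 535 and 401 past 1.5-fold.

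For EBF2-OE against Vector, 0 genes were called without the pairing by number (212 at an unadjusted p under 0.05). With the replicate block 7 were called, and 43 with the block and the GC term. EBF2 itself was missed without the pairing and called with the block (log2 fold change 10.2, adjusted p = 2.2e-07 by edgeR). The 0 calls therefore do not show that EBF2 had no effect. With 2 pairs and no label that ties the numbers, the pairing is not established. Only 2 libraries of each number exist, so the spread of a number cannot be told from that of the groups.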
